A study of Saccharomyces cerevisiae with 9 samples.

Results

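The genes described here encode the nuclear-made proteins of mitochondrial respiration in the budding yeast Saccharomyces cerevisiae: the NADH and lactate dehydrogenases, complexes II, III and IV, cytochrome c, and the ATP synthase with its assembly factors. They were taken from a list of 48 genes, matched to the deposited count and FPKM tables by symbol or S288C locus tag, and 36 of the 48 were found among the 5205 genes of the tables. The other 12 were not analysed here: QCR8, QCR9, QCR10, COX5B, COX7, COX8, COX9, COX12, COX17, ATP15, TIM11 and INH1. Of these 12, 10 are shorter than 300 bases in the S288C annotation, a length that 0 of the 36 analysed genes fall under, so the small subunits of complexes III, IV and V are mostly missing from what follows. Subunits encoded in the mitochondrial genome were not analysed here either.

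RNA was sequenced after poly(A) selection from W303 yeast in 3 groups of 3 libraries, labelled as biological replicates. They are white colonies of the cdc13-K504E mutant (K504E-white), red colonies of the same mutant (K504E-red) and red wild-type colonies (WT-red). All cultures had been held for 15 days in stationary phase in YPD, a rich glucose medium, without dilution. The labels give no white wild-type group, so in K504E-white against WT-red the mutation and the colour cannot be told apart.

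Budding yeast has no proton-pumping complex I. Electrons enter its respiratory chain from single-subunit NADH dehydrogenases, from succinate dehydrogenase (complex II) or, for lactate, directly at cytochrome c, and then pass through complexes III and IV to oxygen, while the ATP synthase (complex V) uses the resulting proton gradient. Transcription of many of the nuclear genes is repressed by glucose and activated by heme and by the Hap2/3/4/5 factor when cells turn to respiration, and a few subunits exist as aerobic and hypoxic isoforms.

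Library totals were 27388755 to 34634199 counts, and the lowest count of any of the 36 genes in any library was 284. CPM here is the count per 1000000 of the TMM-scaled library total. Of the genes of mating type a, STE2 was at 514 to 706 CPM, STE6 at 210 to 327 CPM and BAR1 at 170 to 277 CPM. Of those of the other mating type, STE3 was at 0.61 to 4.002 CPM and MF(ALPHA)1 at 0.186 to 1.83 CPM. MF(ALPHA)2 was at 5.405 to 12.22 CPM and SAG1 at 29.9 to 55.9 CPM. CDC13 itself was at 20.9 to 31.8 CPM over the 9 libraries, and gene counts cannot show its amino acid change. The 36 genes together took 1.36%, 1.37% and 1.41% of all counts in K504E-white, 1.26%, 1.33% and 1.30% in K504E-red and 1.14%, 1.15% and 1.17% in WT-red, so that the libraries of the 3 groups did not overlap. These are RNA levels of whole cultures, in which fewer cells that express a gene and less of its RNA per cell cannot be told apart.

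Most of the genes were higher in both mutant groups than in the wild type, by small amounts. In K504E-white against WT-red, 29 of the 36 rose and 1 fell by edgeR's quasi-likelihood test at an adjusted p-value under 0.05, with a median log2 fold change of 0.31. Over all 5172 genes tested, 46.8% were called in that comparison, 23.3% higher and 23.5% lower, with a median of -0.01. The libraries of the groups did not overlap for 29 higher and 2 lower genes, beside 27.8% and 28.4% of all genes.

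In K504E-red, 25 of the 36 rose and 0 fell against WT-red, with a median of 0.22, beside 47.5% of all genes called, 25.8% higher and 21.7% lower, and a median of 0.03. At an unadjusted p under 0.05, 26 were higher and 0 lower by edgeR, and DESeq2 and limma-voom also called 0 lower. When replicate 2 of K504E-red was left out, the number of genes called was 16. The libraries did not overlap for 27 higher genes and 1 lower gene, beside 29.7% and 24.9% of all genes. Both comparisons share the WT-red libraries: 24 genes were called higher in both, 5 in K504E-white alone, 1 in K504E-red alone, and 5 were called in neither.

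Between the mutant groups, 13 genes were higher and 3 lower in K504E-white, with a median of 0.10, beside 54.5% of all genes called, 27.2% higher and 27.3% lower, and a median of -0.0043. The libraries of the mutant groups did not overlap for 16 higher and 3 lower genes, beside 30.7% and 31.1% of all genes. The plot of log2 fold changes by gene shows the 3 comparisons side by side.

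**Figure D1:**
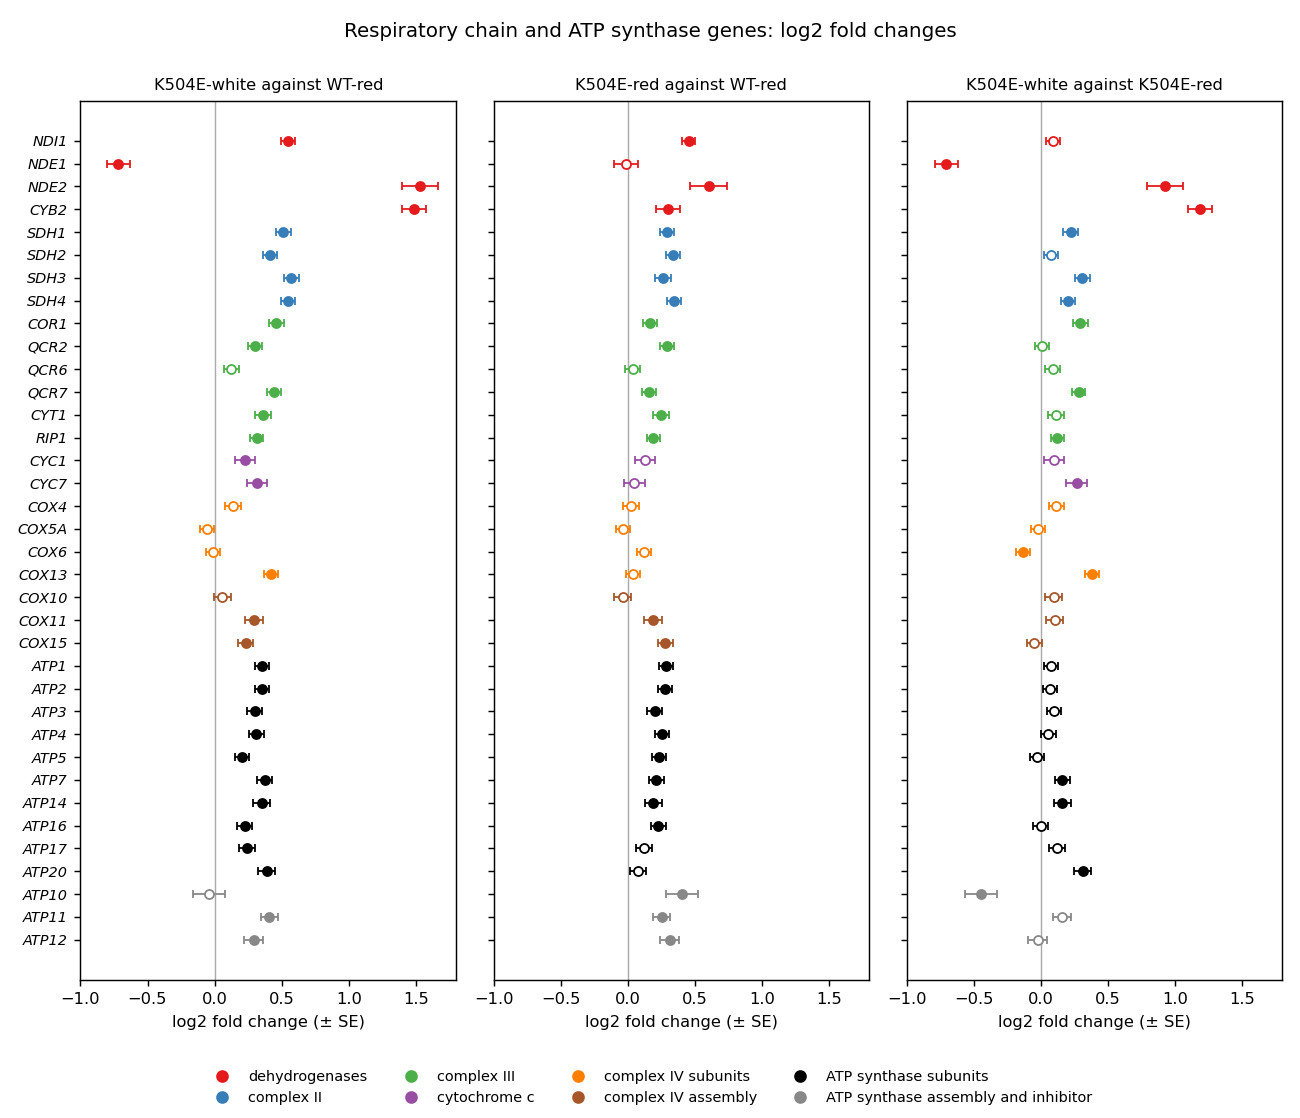
Log2 fold change (± SE) of each of the 36 genes, one row per gene and one panel per comparison, coloured by complex, with filled points for an edgeR adjusted p-value under 0.05 and open points for the rest. Against WT-red, 32 of the 36 points of K504E-white and 33 of the 36 of K504E-red lie right of 0, NDE1 lies at -0.72 in K504E-white, and the 4 subunit genes of complex IV lie between -0.04 and 0.12 in K504E-red against WT-red.

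Of the enzymes by which electrons enter the chain, NDE2, CYB2 and NDE1 gave the 3 log2 fold changes of the largest size among the 36 genes in K504E-white against WT-red, and they did not move together. In the W303 assembly of the files, numbered by contig, NDI1 (YML120C) lies on contig 94 at 57172 to 58713, NDE1 (YMR145C) on contig 31 at 50162 to 51844, NDE2 (YDL085W) on contig 37 at 75678 to 77315 and CYB2 (YML054C) on contig 167 at 16933 to 18708. NDE2, an external NADH dehydrogenase that faces the intermembrane space, had 32.3, 37.0 and 31.8 CPM in K504E-white, 20.7, 15.1 and 17.5 CPM in K504E-red and 9.999, 11.99 and 13.0 CPM in WT-red. The 3 groups did not overlap, and each step was called. The log2 fold change of NDE2 was 1.53 (SE 0.134, adjusted p 4.53e-08 by edgeR) in K504E-white and 0.60 (SE 0.136, adjusted p 0.00149) in K504E-red, each against WT-red, and 0.92 (SE 0.131, adjusted p 1.10e-05) between the mutant groups.

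NDE1, the other external NADH dehydrogenase, went the opposite way to NDE2 in white colonies. It had 477, 465 and 467 CPM in K504E-white, 618, 825 and 852 CPM in K504E-red and 751, 831 and 733 CPM in WT-red. The K504E-white libraries lay below all others, while K504E-red spanned the range of WT-red, with replicate 1 its lowest. The log2 fold change was -0.72 (SE 0.0876, adjusted p 2.87e-06 by edgeR) in K504E-white and -0.01 (SE 0.0871, adjusted p 0.920) in K504E-red, each against WT-red, and -0.70 (SE 0.0877, adjusted p 2.46e-06) in K504E-white against K504E-red.

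Per unit of gene length, NDE1 RNA was 12.2 to 14.4 times as abundant as NDE2 RNA in the K504E-white libraries, against 29.1 to 53.2 times in K504E-red and 54.8 to 73.1 times in WT-red, in FPKM. The ratios between genes given here were set up after their values had been seen and are descriptions. NDE1 stayed the more abundant of the pair in every library, at 278 ± 3.64 FPKM in K504E-white, 450 ± 76.1 FPKM in K504E-red and 458 ± 34.6 FPKM in WT-red (SD, n = 3).

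NDI1, the internal NADH dehydrogenase that takes electrons from the mitochondrial matrix, was higher than in WT-red in both mutant groups. It had 546, 520 and 545 CPM in K504E-white, 507.7, 499.8 and 503.7 CPM in K504E-red and 362, 351 and 390 CPM in WT-red. On the log2 scale, the difference of NDI1 was 0.55 (SE 0.0513, adjusted p 1.08e-07 by edgeR) in K504E-white and 0.45 (SE 0.0513, adjusted p 2.49e-06) in K504E-red, and 0.09 (SE 0.0511, adjusted p 0.136) in K504E-white against K504E-red. The ratio of NDE1 to NDI1 in FPKM was 0.80 ± 0.0172 in K504E-white, 1.39 ± 0.240 in K504E-red and 1.93 ± 0.225 in WT-red (SD, n = 3).

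CYB2 encodes the lactate dehydrogenase of the intermembrane space that passes electrons to cytochrome c. It had 228, 189 and 183 CPM in K504E-white, 90.1, 95.1 and 78.3 CPM in K504E-red and 66.9, 68.4 and 79.0 CPM in WT-red. All K504E-white libraries lay above all others, and K504E-red overlapped WT-red. The log2 fold change was 1.48 (SE 0.0901, adjusted p 3.05e-10 by edgeR) in K504E-white against WT-red and 1.19 (SE 0.0893, adjusted p 4.41e-09) against K504E-red. CYB2 was called in K504E-red against WT-red at 0.30 (SE 0.0900, adjusted p 0.0118 by edgeR). Leaving out replicate 1 or 2 of WT-red, or replicate 2 of K504E-red, ended that call (adjusted p 0.0536 to 0.113).

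**Figure D2:**
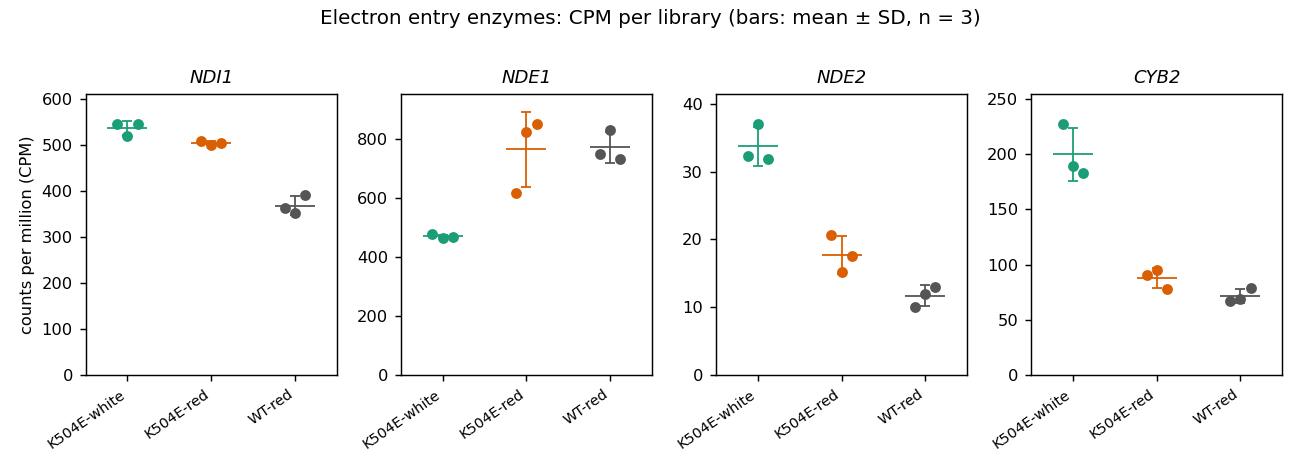
CPM of NDI1, NDE1, NDE2 and CYB2 in each library (points) with the mean ± SD of each group of 3 libraries (bars), each panel on its own linear axis from 0. NDE2 and CYB2 are highest in K504E-white, NDE1 is lowest there at 465 to 477 CPM, and NDI1 is above WT-red in both mutant groups.

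A list of 5 further genes of electron transfer was set beside the 36 genes: GUT2, DLD1, DLD2, MCR1 and CYB5. By the same edgeR test, 3 of 5 rose and 0 fell in K504E-white against WT-red. In K504E-red against WT-red, 4 rose and 1 fell, and 3 rose and 1 fell between the mutant groups. The gene that fell in K504E-red was CYB5 (-0.88), whose product does not act in the respiratory chain. CYB5 is also counted among those that rose between the mutant groups (0.92), where MCR1 fell (-0.47). The median log2 fold changes of the 5 genes were 0.34, 0.22 and 0.39 in that order. The shares called were 60%, 100% and 80%, beside 46.8%, 47.5% and 54.5% of all genes.

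All 4 genes of complex II, succinate dehydrogenase, rose in both mutant groups. Against WT-red, 23.3% of all genes were called higher in K504E-white and 25.8% in K504E-red. SDH1 (the flavoprotein) had 673, 660 and 711 CPM in K504E-white, 570, 571 and 613 CPM in K504E-red and 482, 453 and 498 CPM in WT-red. SDH3, a membrane anchor, had 240, 255 and 259 CPM in K504E-white, 196, 212 and 200 CPM in K504E-red and 163, 163 and 182 CPM in WT-red. For both genes the 3 groups did not overlap.

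The log2 fold changes of complex II ran from 0.41 (SDH2, the iron-sulfur subunit) to 0.57 (SDH3, SE 0.0576, adjusted p 2.62e-07 by edgeR) in K504E-white against WT-red. K504E-red gave 0.26 (SDH3) to 0.34 (SDH4, the other anchor) against WT-red. SDH1, SDH3 and SDH4 were also higher in K504E-white than in K504E-red, by 0.22 (SE 0.0541), 0.31 (SE 0.0574) and 0.20 (SE 0.0498), with adjusted p-values by edgeR of 0.00220, 0.000189 and 0.00238. SDH2 differed by 0.08 (SE 0.0491, adjusted p 0.207). Of the assembly factors for complexes II and III listed beside the members, 10 were analysed: 5 rose and 1 fell in K504E-white against WT-red, 5 rose and 0 fell in K504E-red against WT-red, and 2 rose and 2 fell between the mutant groups. The shares of these 10 called were 60%, 50% and 40%, beside 46.8%, 47.5% and 54.5% of all genes.

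Complex III, the cytochrome bc complex, was represented by 6 of its 9 listed genes. Of these 6, 5 rose in each comparison with WT-red, beside 23.3% of all genes for K504E-white and 25.8% for K504E-red. The exception was QCR6, which encodes the acidic hinge subunit, with 353, 344 and 320 CPM in K504E-white, 314, 336 and 307 CPM in K504E-red and 329, 297 and 307 CPM in WT-red, overlapping groups. COR1, a core subunit, had 838, 824 and 870 CPM in K504E-white, 664, 708 and 692 CPM in K504E-red and 572, 617 and 651 CPM in WT-red. QCR7 had 298, 313 and 307 CPM in K504E-white, 254, 243 and 258 CPM in K504E-red and 215, 229 and 232 CPM in WT-red. For COR1 and QCR7 the 3 groups did not overlap, K504E-white being the highest and WT-red the lowest.

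In K504E-white against WT-red the log2 fold changes were 0.46 (SE 0.0549) for COR1, 0.44 (SE 0.0505) for QCR7, 0.36 (SE 0.0587) for CYT1, the cytochrome subunit, 0.31 (SE 0.0491) for RIP1, the Rieske iron-sulfur protein, and 0.30 (SE 0.0529) for QCR2, the other core subunit. Against K504E-red, COR1 was higher by 0.29 (SE 0.0548, adjusted p 0.000199 by edgeR) and QCR7 by 0.28 (SE 0.0504, adjusted p 0.000137). QCR2 differed between the mutant groups by 0.01 (SE 0.0528, adjusted p 0.909).

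QCR2 rose by 0.29 (SE 0.0529) and CYT1 by 0.25 (SE 0.0588) when K504E-red was set against WT-red. The calls for COR1 (0.17), QCR7 (0.16) and RIP1 (0.19) there were not made under every setting. COR1 was not called when replicate 1 of WT-red, 2 or 3 of K504E-red, or 1 or 2 of K504E-white was left out (edgeR adjusted p 0.0701 to 0.221). For QCR7 the same held for replicate 1 of WT-red, 3 of K504E-red, and 1 or 2 of K504E-white (0.0629 to 0.168). Both calls were also lost with other low-count filters or in a fit of the pair of groups alone (0.0504 to 0.0655). RIP1 was not called when replicate 2 of K504E-red was left out (0.0813).

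RIP1 was also called higher in K504E-white than in K504E-red, at 0.12 (SE 0.0490, adjusted p 0.0429 by edgeR). That call was lost with a replicate block (0.0570), and on leaving out replicate 1 or 3 of K504E-red or any single K504E-white library (0.0603 to 0.175).

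Cytochrome c carries electrons from complex III to complex IV. CYC1 encodes the aerobic form and CYC7 the form that is favoured at low oxygen and under stress. CYC1 had 210, 217 and 255 CPM in K504E-white, 192, 227 and 219 CPM in K504E-red and 197, 204 and 184 CPM in WT-red. CYC7 had 224, 192 and 183 CPM in K504E-white, 184, 155 and 159 CPM in K504E-red and 159, 153 and 170 CPM in WT-red. For both isoforms K504E-white lay above WT-red, and K504E-red overlapped both other groups.

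CYC7 rose by 0.32 (SE 0.0768, adjusted p 0.00259 by edgeR) in K504E-white against WT-red and by 0.27 (SE 0.0768, adjusted p 0.00720) against K504E-red. The second call was lost without K504E-white replicate 1 (0.0573) and with a trend on gene length removed (0.0610). CYC1 was called higher in K504E-white against WT-red at 0.22 (SE 0.0744, adjusted p 0.0203 by edgeR). That call was lost with other low-count filters or a length trend removed (0.0513 to 0.0703). It was also lost on leaving out replicate 1 or 3 of WT-red, or replicate 2 or 3 of either mutant group (0.0524 to 0.270). K504E-red differed from WT-red by 0.13 (adjusted p 0.180 by edgeR) for CYC1 and by 0.05 (adjusted p 0.624) for CYC7. Without K504E-red replicate 1, CYC1 was called in that comparison at 0.19 (edgeR adjusted p 0.0425).

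A difference in the balance of the 2 isoforms was not detected. The log2 ratio of CYC1 to CYC7 counts, in which library size cancels, was -0.09, 0.18 and 0.48 in K504E-white, 0.06, 0.55 and 0.46 in K504E-red and 0.31, 0.41 and 0.12 in WT-red. Group means were 0.19 ± 0.286, 0.36 ± 0.259 and 0.28 ± 0.149 (SD, n = 3) in the same order. An exact permutation test over the 3 groups gave p = 0.696, where the smallest p this design allows is 0.00357. Per length, CYC1 RNA was 0.971 to 1.51 times as abundant as CYC7 RNA over the 9 libraries. COX5B, the hypoxic partner of COX5A, was not analysed, so the second isoform pair has no ratio.

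**Figure D3:**
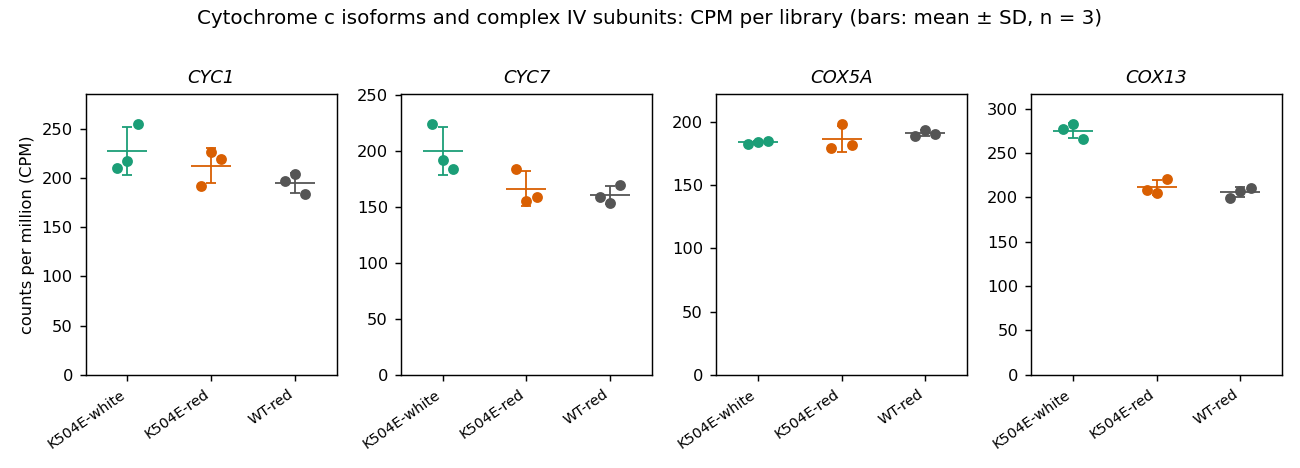
CPM of CYC1, CYC7, COX5A and COX13 in each library (points) with the mean ± SD of each group of 3 libraries (bars), on linear axes from 0. COX13 stands at 266 to 283 CPM in K504E-white and at 200 to 221 CPM in the other groups, while COX5A lies at 180 to 199 CPM in all 9 libraries.

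Complex IV, cytochrome c oxidase, was represented by 4 of its 9 listed nuclear subunit genes, and these changed little. Against WT-red, 1 of 4 was called by edgeR in K504E-white and 0 of 4 in K504E-red, beside 46.8% and 47.5% of all genes. In K504E-red, DESeq2 and limma-voom also called 0, and 1 gene had an unadjusted p under 0.05 by edgeR. COX5A, the aerobic subunit V, had 182, 184 and 185 CPM in K504E-white, 180, 199 and 182 CPM in K504E-red and 189, 194 and 191 CPM in WT-red. Its log2 fold change was -0.06 (SE 0.0521, adjusted p 0.402) in K504E-white and -0.04 (SE 0.0522, adjusted p 0.604) in K504E-red against WT-red, although the K504E-white libraries all lay below those of WT-red. COX4 had 244, 266 and 264 CPM in K504E-white, 231, 255 and 228 CPM in K504E-red and 246, 229 and 228 CPM in WT-red, overlapping groups.

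COX13, a peripheral subunit, was the exception. It had 277, 283 and 266 CPM in K504E-white, 208, 205 and 221 CPM in K504E-red and 200, 207 and 211 CPM in WT-red, with all K504E-white libraries above the rest. On the log2 scale, the difference of COX13 was 0.42 (SE 0.0515, adjusted p 3.21e-06 by edgeR) in K504E-white and 0.04 (SE 0.0517, adjusted p 0.591) in K504E-red, each against WT-red, and 0.38 (SE 0.0515, adjusted p 6.55e-06) between the mutant groups.

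COX6, another nuclear subunit, had 221, 232 and 238 CPM in K504E-white, 249, 251 and 258 CPM in K504E-red and 242, 221 and 233 CPM in WT-red. It was called lower in K504E-white than in K504E-red, by -0.13 (SE 0.0519, adjusted p 0.0366 by edgeR). It was not called when replicate 2 or 3 of K504E-red, or 1 or 2 of K504E-white, was left out (0.0671 to 0.154).

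Of the 3 complex IV assembly genes analysed, COX15, which makes heme A, rose by 0.23 (SE 0.0550, adjusted p 0.00216 by edgeR) in K504E-white and by 0.28 (SE 0.0551, adjusted p 0.000481) in K504E-red against WT-red. COX11, needed for insertion of copper, rose by 0.29 (SE 0.0662, adjusted p 0.00154) in K504E-white. In K504E-red COX11 was called at 0.19 (adjusted p 0.0269 by edgeR), and the call was lost under upper quartile scaling, other low-count filters or a fit of the pair of groups alone (0.0535 to 0.0657). Leaving out any single library of these groups other than replicate 3 of WT-red, or replicate 1 or 2 of K504E-white, also ended it (0.0631 to 0.153). COX10, which makes the heme O precursor, had 56.3 to 59.1 CPM in K504E-white, 53.6 to 54.4 CPM in K504E-red and 54.7 to 56.5 CPM in WT-red and was not called in any of the 3 comparisons. Among 22 further factors for complex IV listed beside the members, 11 rose and 1 fell in K504E-white against WT-red, 15 rose and 1 fell in K504E-red against WT-red, and 3 rose and 5 fell between the mutant groups. The shares of these 22 called were 54.5%, 72.7% and 36.4%, beside 46.8%, 47.5% and 54.5% of all genes.

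The ATP synthase subunit genes rose in K504E-white by amounts close to each other. All 10 subunit genes analysed rose in K504E-white against WT-red, with log2 fold changes of 0.20 (ATP5) to 0.39 (ATP20). In K504E-red 8 of 10 rose, where the 10 values ran from 0.08 (ATP20) to 0.28 (ATP1). Of all genes, 23.3% were called higher in K504E-white and 25.8% in K504E-red, each against WT-red. ATP2, which encodes the catalytic beta subunit, had 2221, 2258 and 2385 CPM in K504E-white, 2096, 2183 and 2262 CPM in K504E-red and 1793, 1745 and 1848 CPM in WT-red. ATP1, for the alpha subunit, had 1245, 1266 and 1347 CPM in K504E-white, 1178, 1258 and 1233 CPM in K504E-red and 1018, 963 and 1035 CPM in WT-red. Both were above WT-red in every mutant library, and the mutant groups overlapped each other.

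ATP1 and ATP2 moved in parallel, by 0.35 (SE 0.0525, adjusted p 2.56e-05 by edgeR) and 0.35 (SE 0.0523, adjusted p 2.83e-05) in K504E-white and by 0.28 (SE 0.0525) and 0.28 (SE 0.0523) in K504E-red against WT-red. The ratio of ATP2 to ATP1 in FPKM was 1.90 in each group, with an SD of 0.00747 in K504E-white, 0.0534 in K504E-red and 0.0275 in WT-red (n = 3). Between the mutant groups ATP1 differed by 0.07 (adjusted p 0.258) and ATP2 by 0.07 (adjusted p 0.274).

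ATP20, for a subunit tied to dimer formation of the enzyme, rose in white colonies and was not called in red ones. It had 93.0, 95.8 and 98.5 CPM in K504E-white, 74.8, 81.8 and 75.2 CPM in K504E-red and 74.4, 73.6 and 71.6 CPM in WT-red. Its log2 fold change was 0.39 (SE 0.0609, adjusted p 4.89e-05 by edgeR) in K504E-white and 0.08 (SE 0.0613, adjusted p 0.321) in K504E-red, each against WT-red, and 0.31 (SE 0.0609, adjusted p 0.000325) between the mutant groups. ATP7 and ATP14, for stalk subunits, were called higher in K504E-white than in K504E-red by 0.16 each (edgeR adjusted p 0.0207 and 0.0403). ATP7 was not called when replicate 3 of K504E-red, or 2 or 3 of K504E-white, was left out (0.0716 to 0.101). ATP14 was not called when any K504E-red library, or replicate 1 or 3 of K504E-white, was left out (0.0518 to 0.217), with a replicate block (0.0561) and with a length trend removed (0.171).

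Several calls among the ATP synthase subunits were lost when 1 library was left out. Without replicate 2 of K504E-red, ATP3, ATP7 and ATP16 were not called in that group against WT-red, with edgeR adjusted p-values of 0.101, 0.0703 and 0.0524. ATP14 was not called there when replicate 3 of WT-red, 2 or 3 of K504E-red, or 1 or 2 of K504E-white was left out (0.0716 to 0.152), nor with other low-count filters or a fit of the pair of groups alone (0.0614 to 0.0638). ATP5 was not called in K504E-white against WT-red when replicate 3 of K504E-white was left out (0.0504).

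Of the assembly factors of the catalytic head, ATP11 and ATP12, chaperones for the beta and alpha subunits, rose by 0.41 (SE 0.0656) and 0.29 (SE 0.0708) in K504E-white and by 0.25 (SE 0.0658) and 0.31 (SE 0.0709) in K504E-red against WT-red. ATP11 was not called in K504E-red without WT-red replicate 1 (edgeR adjusted p 0.0559). ATP10, which acts in assembly of the membrane part, had 20.7, 15.7 and 20.2 CPM in K504E-white, 23.6, 26.42 and 26.97 CPM in K504E-red and 18.6, 19.1 and 20.5 CPM in WT-red. K504E-red lay above both other groups, which overlapped. On the log2 scale, the difference of ATP10 was -0.04 (SE 0.121, adjusted p 0.805 by edgeR) in K504E-white and 0.40 (SE 0.120, adjusted p 0.0104) in K504E-red, each against WT-red, and -0.45 (SE 0.120, adjusted p 0.00441) between the mutant groups. The call against WT-red was lost on leaving out its replicate 1, or replicate 2 or 3 of K504E-red (0.0528 to 0.0605). Of 8 further ATP synthase factors listed beside the members, 3 rose and 0 fell in K504E-white and 4 rose and 0 fell in K504E-red against WT-red, and 0 rose and 1 fell between the mutant groups. The shares of these 8 called were 37.5%, 50% and 12.5%, beside 46.8%, 47.5% and 54.5% of all genes.

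**Figure D4:**
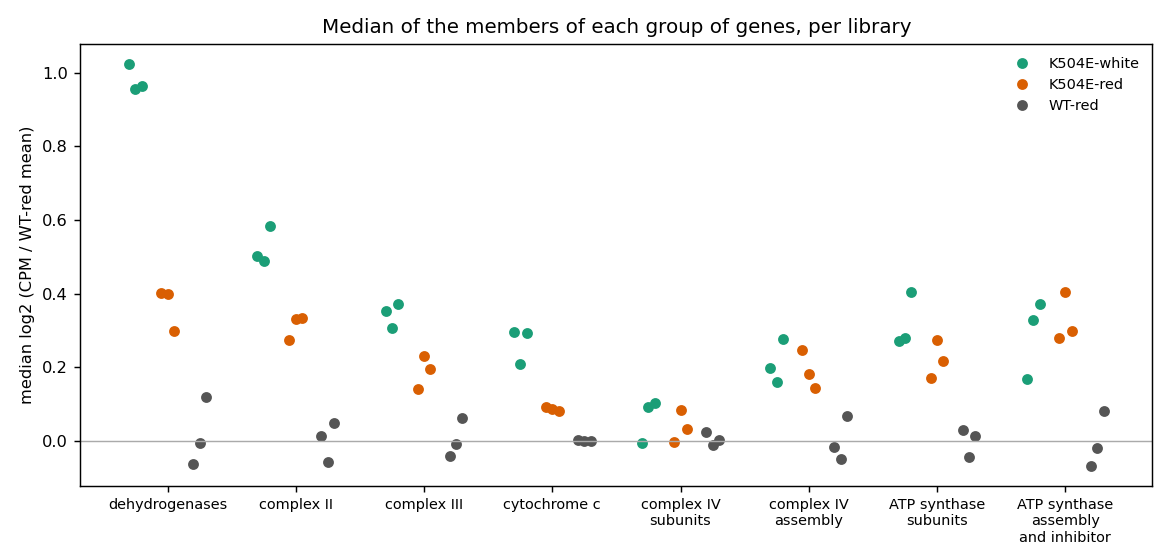
Median over the genes of each complex of the log2 ratio of CPM to the WT-red mean, one point per library, coloured by group. The K504E-white and K504E-red points lie above all WT-red points for complex II, complex III and the ATP synthase subunits, and the 3 groups overlap for the complex IV subunits, at -0.01 to 0.10.

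Set side by side, the median log2 fold changes of the complexes in K504E-white against WT-red were 1.02 for the 4 dehydrogenases, 0.53 for complex II, 0.34 for complex III, 0.27 for cytochrome c, 0.06 for complex IV subunits, 0.23 for complex IV assembly, 0.33 for ATP synthase subunits and 0.29 for ATP synthase assembly. For K504E-red against WT-red they were 0.38, 0.31, 0.18, 0.09, 0.03, 0.19, 0.22 and 0.31 in the same order. In K504E-white against WT-red the 4 dehydrogenases ran from -0.72 (NDE1) to 1.53 (NDE2), so their median does not describe a shared change. The complexes were not tested against each other. In the libraries themselves, the complex II median relative to WT-red was 0.50, 0.49 and 0.58 in K504E-white and 0.27, 0.33 and 0.33 in K504E-red.

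Levels were compared between genes per length, in FPKM. In WT-red the 4 complex II genes spanned 248 to 398 FPKM, the 6 complex III genes 342 to 698 FPKM and the 4 complex IV subunits 413 to 527 FPKM. The 10 ATP synthase subunits spanned 210 FPKM (ATP20) to 1166 FPKM (ATP2), the highest level of the 36 genes. NDE2 was the lowest at 7.10 ± 0.901 FPKM, and the assembly genes COX10 and ATP10 had 39.8 ± 0.424 and 23.0 ± 1.01 FPKM (SD, n = 3). In K504E-white the complex IV subunits spread to 396 (COX5A) to 703 FPKM (COX13).

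Regulators of these genes were followed as a list of 9, of which 4 rose and 1 fell in K504E-white against WT-red, 6 rose and 2 fell in K504E-red against WT-red, and 4 rose and 3 fell between the mutant groups. The shares of all genes called either way in these comparisons were 46.8%, 47.5% and 54.5%. HAP4, the activating and carbon-regulated part of the Hap2/3/4/5 factor, had 746, 831 and 708 CPM in K504E-white, 664, 649 and 657 CPM in K504E-red and 544, 622 and 603 CPM in WT-red. It rose by 0.37 (SE 0.0627, adjusted p 0.000110 by edgeR) in K504E-white against WT-red, in libraries that did not overlap. HAP4 was at 0.16 in K504E-red against WT-red with an adjusted p of 0.0499 by edgeR. That call was lost under 8 of 11 other settings (0.0567 to 0.134), DESeq2 among them, and when any single library other than replicate 2 of WT-red was left out (0.0600 to 0.437). Between the mutant groups HAP4 was higher in K504E-white by 0.21 (adjusted p 0.00789), a call lost without K504E-white replicate 2 (0.0651).

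HAP2, HAP3 and HAP5, the DNA-binding parts of the same factor, and CAT8, MIG1 and MOT3 are named here after their values had been seen. HAP2 rose by 0.55 (SE 0.0749, adjusted p 1.08e-05 by edgeR) in K504E-white and by 0.43 (SE 0.0753, adjusted p 0.000168) in K504E-red, each against WT-red. HAP3 had 21.7, 18.9 and 24.9 CPM in K504E-white, 26.1, 31.6 and 25.6 CPM in K504E-red and 29.5, 26.9 and 25.9 CPM in WT-red, with K504E-white below both other groups. It was called lower in K504E-white than in WT-red (-0.33, SE 0.119, adjusted p 0.0288 by edgeR) and than in K504E-red (-0.35, SE 0.119, adjusted p 0.0195). The first of these calls was lost on leaving out replicate 1 or 2 of WT-red or 2 of K504E-white (0.0545 to 0.0969). The second was lost on leaving out replicate 2 of K504E-red or 1 or 2 of K504E-white (0.0518 to 0.122). K504E-red against WT-red gave 0.02 for HAP3 (adjusted p 0.921 by edgeR), a sign that turned under upper quartile scaling and other count filters.

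HAP5 was at -0.09 (adjusted p 0.421 by edgeR) in K504E-white and was called at 0.30 (SE 0.0884, adjusted p 0.00945) in K504E-red, each against WT-red. The K504E-red call was lost on leaving out replicate 2 of WT-red (0.0615) or its own replicate 3 (0.0816). Between the mutant groups HAP5 was lower in K504E-white, at -0.40 (SE 0.0885, adjusted p 0.00105 by edgeR).

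CAT8, an activator of gluconeogenic genes, had 52.6, 51.5 and 53.8 CPM in K504E-white, 30.2, 33.8 and 25.1 CPM in K504E-red and 20.9, 25.1 and 25.3 CPM in WT-red. It rose by 1.15 (SE 0.108, adjusted p 1.07e-07 by edgeR) in K504E-white against WT-red, the largest change among the 9 regulators there, and by 0.83 (SE 0.107, adjusted p 3.66e-06) against K504E-red. K504E-red overlapped WT-red, and its call of 0.32 (adjusted p 0.0239 by edgeR) was lost with limma on FPKM or a fit of the pair of groups alone (0.0715 to 0.102). Leaving out replicate 1 of WT-red, 1 or 2 of K504E-red, or 1 or 2 of K504E-white also ended it (0.0529 to 0.225). MIG1, a glucose repressor, was at 0.50 (SE 0.0712, adjusted p 1.73e-05 by edgeR) in K504E-white and 0.47 (SE 0.0713, adjusted p 4.59e-05) in K504E-red, each against WT-red. MOT3 was at -0.11 (adjusted p 0.3335 by edgeR) and -0.67 (SE 0.0888, adjusted p 1.09e-05) in the same order. Between the mutant groups MOT3 was at 0.56 (adjusted p 4.05e-05 by edgeR).

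HAP1, the heme-activated regulator of aerobic genes, had 198, 202 and 195 CPM in K504E-white, 283, 298 and 302 CPM in K504E-red and 207, 211 and 227 CPM in WT-red. It rose by 0.45 (SE 0.0526, adjusted p 3.09e-06 by edgeR) in K504E-red against WT-red and was -0.57 (SE 0.0526, adjusted p 6.51e-08) in K504E-white against K504E-red. HAP1 was at -0.12 (adjusted p 0.0741 by edgeR) in K504E-white against WT-red. It was called lower there under upper quartile scaling and other low-count filters (0.0181 to 0.0347). The same was found on leaving out replicate 1 of WT-red, 2 or 3 of K504E-red, or 2 of K504E-white (0.0142 to 0.0328).

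ROX1, the repressor of hypoxic genes, had 156, 136 and 98.3 CPM in K504E-white, 104, 98.5 and 102 CPM in K504E-red and 134, 149 and 138 CPM in WT-red. It fell in K504E-red, with -0.47 (SE 0.110, adjusted p 0.00213 by edgeR) against WT-red. K504E-white spread over both other groups. In K504E-white against WT-red its value was -0.11 (adjusted p 0.450), which became -0.29 without K504E-white replicate 1 (adjusted p 0.0295). In K504E-white against K504E-red it was 0.36 (adjusted p 0.0106), a call lost without that library (0.0990).

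Genes outside the respiratory chain that respond to oxygen or heme were read as a list of 5 hypoxic genes. Against WT-red, 3 rose and 0 fell in K504E-white, while 0 rose and 3 fell in K504E-red. The share of the 5 called was 60% in each of these comparisons, beside 46.8% and 47.5% of all genes in that order. Whether the list as a set differed from other genes was not tested. HEM13, a heme synthesis gene induced at low oxygen or heme, had 1358, 1248 and 1281 CPM in K504E-white, 380, 314 and 383 CPM in K504E-red and 557, 491 and 553 CPM in WT-red. Its log2 fold change was 1.28 (SE 0.0726, adjusted p 1.21e-10 by edgeR) in K504E-white and -0.57 (SE 0.0721, adjusted p 6.07e-06) in K504E-red, each against WT-red, and 1.85 (SE 0.0739, adjusted p 6.89e-13) between the mutant groups. All groups were apart.

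The hypoxic translation factor gene ANB1 had 537, 516 and 480 CPM in K504E-white, 300.2, 320 and 277 CPM in K504E-red and 515, 508 and 471 CPM in WT-red. Against WT-red, ANB1 was at 0.04 (adjusted p 0.650 by edgeR) in K504E-white and fell by 0.74 on the log2 scale (SE 0.0614, adjusted p 1.44e-07) in K504E-red. HYP2, its listed aerobic partner, was not analysed, so ANB1 cannot be set against it. The search for near-identical copies did not cover ANB1. OLE1, the fatty acid desaturase, had 5270, 4719 and 4333 CPM in K504E-white, 3157, 3095 and 3030 CPM in K504E-red and 4154, 4580 and 4513 CPM in WT-red. It was at 0.11 (adjusted p 0.174 by edgeR) in K504E-white and fell by 0.51 (SE 0.0659, adjusted p 7.36e-06) in K504E-red, each against WT-red.

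AAC3, the hypoxic ADP/ATP carrier, had 29.5, 21.2 and 28.6 CPM in K504E-white, 15.5, 15.6 and 12.1 CPM in K504E-red and 17.8, 14.3 and 15.7 CPM in WT-red. It rose by 0.73 (SE 0.145, adjusted p 0.000471 by edgeR) in K504E-white and was at -0.15 (adjusted p 0.437) in K504E-red against WT-red. PET9, the main carrier, had 721, 747 and 803 CPM in K504E-white, 658, 695 and 722 CPM in K504E-red and 645, 681 and 665 CPM in WT-red. PET9 rose by 0.19 (adjusted p 0.00831 by edgeR) in K504E-white against WT-red, a call lost on leaving out replicate 1 of WT-red (0.0767) or replicate 3 of K504E-white (0.111).

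The sterol genes HMG1 and HMG2 are also an aerobic and hypoxic pair. HMG1 had 358, 266 and 226 CPM in K504E-white, 141, 138 and 126 CPM in K504E-red and 248, 265 and 235 CPM in WT-red. It was at 0.19 (adjusted p 0.181 by edgeR) in K504E-white and at -0.89 (SE 0.112, adjusted p 6.42e-06) in K504E-red, each against WT-red. In K504E-white its value was -0.05 (adjusted p 0.628 by edgeR) without replicate 1 of that group, and it was called at 0.30 (adjusted p 0.0230) without replicate 3. HMG2 had 310, 303.5 and 300.3 CPM in K504E-white, 272, 253 and 254 CPM in K504E-red and 260, 256 and 274 CPM in WT-red, with K504E-white above both other groups. HMG2 rose by 0.21 (SE 0.0503, adjusted p 0.00217 by edgeR) in K504E-white and was at -0.02 (adjusted p 0.799) in K504E-red. All 5 hypoxic genes on the list (ANB1, AAC3, HEM13, OLE1 and HMG2) were called higher in K504E-white than in K504E-red by edgeR, beside 27.2% of all genes. The aerobic HMG1 was higher there too, by 1.07 (SE 0.112, adjusted p 3.30e-07 by edgeR), against 0.23 (SE 0.0503, adjusted p 0.000888) for HMG2. PET9, also an aerobic form, was at 0.13 (adjusted p 0.0531 by edgeR) and was called under 10 of 11 other settings (adjusted p 0.0262 to 0.0499).

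**Figure D5:**
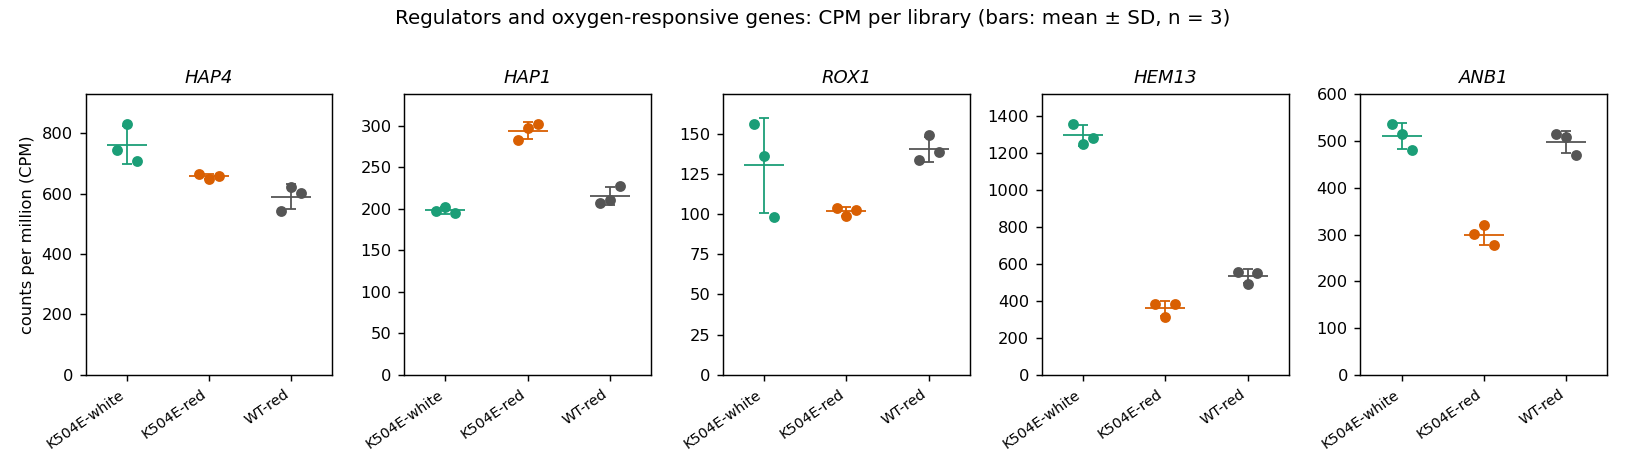
CPM of HAP4, HAP1, ROX1, HEM13 and ANB1 in each library (points) with the mean ± SD of each group of 3 libraries (bars), each panel on its own linear axis from 0. HEM13 stands at 1248 to 1358 CPM in K504E-white and at 314 to 557 CPM in the other groups, and ANB1 is lowest in K504E-red.

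Other listed genes give a scale for these values. The 7 lists of further factors, electron transfer genes and regulators held 67 analysed genes. Of the 67, 33 rose and 3 fell in K504E-white against WT-red (median 0.15). In K504E-red against WT-red 43 rose and 5 fell (median 0.22), and between the mutant groups 16 rose and 15 fell (median -0.02). The shares called were 53.7%, 71.6% and 46.3% in that order, beside 46.8%, 47.5% and 54.5% of all genes. Within these lists, 6 of 10 coenzyme Q genes rose in K504E-white and 7 of 10 in K504E-red, where 1 fell. Of the 3 cytochrome c maturation genes, 1 and 2 rose in the same order. Called either way against WT-red were 60% and 80% of the coenzyme Q genes and 33.3% and 66.7% of the maturation genes. Of 16 genes for protein import and metabolite carriers, 7 rose and 0 fell in K504E-white against WT-red (median 0.11), 4 rose and 1 fell in K504E-red (median 0.04), and 6 rose and 1 fell between the mutant groups (median 0.09). The shares of these 16 genes that were called were 43.8%, 31.2% and 43.8%, each below the share of all genes called in that comparison, at 46.8%, 47.5% and 54.5%.

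Cytosolic ribosomal protein genes, a sign of growth state, moved with the groups too. The 68 counted are those found by symbol among the genes analysed here, and any absent ones are not covered. Of the 68, 20 rose and 0 fell in K504E-white against WT-red (median 0.11). In K504E-red against WT-red 67 fell (median -0.48), and 67 rose in K504E-white against K504E-red (median 0.59). The shares of the 68 called were 29.4%, 98.5% and 98.5%, beside 46.8%, 47.5% and 54.5% of all genes. The part of growth state in the values of the respiratory genes was not tested.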

How the data were processed

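The authors deposited whole-number gene counts and FPKM values for 9 poly(A)-selected libraries, without normalization in the count table. The deposited FPKM equal count over gene length and over 1 total per library, 0.9855 to 1.035 times the count sum, and another table repeats them with group means. The coordinates, per the file headers, are on 195 contigs of W303. Aligner, counting program and use of strand are not given in the sources used here. No analysed gene overlaps another gene of the table, and 0 of the 36 has a near-identical copy in S288C (BLAST 2.17.0, 95% identity over 100 bases). Total counts were 27388755 to 34634199.

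Columns were matched to samples by group letter and replicate number. Symbols came from the S288C R64 gene table (5162 of 5205 genes matched by locus tag). The members and lists were chosen with earlier results of these data known. Counts were filtered with filterByExpr (5172 genes retained, all 36 members among them), scaled with TMM and tested with edgeR 4.0.16 (R 4.3.3), quasi-likelihood, two-sided, in 1 model of all 9 libraries with group as its term, with Benjamini-Hochberg adjustment over all genes of a comparison. A gene was called at an adjusted p under 0.05. The SE given was worked back from the test, as the size of the log2 fold change over the square root of edgeR's F statistic. The CYC1 to CYC7 ratio used counts plus 0.5 and an exact permutation test. Since COX5B was not analysed, the COX5A to COX5B ratio planned beside it was not computed, and p was not adjusted. A planned promoter motif search was not run, for lack of a genome of the files' build. Replicates are labelled biological, with no statement of separate cultures.

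Values in every library are given for CYC1, CYC7 and COX5A. In each comparison they are also given for the 3 called members with the largest change in each direction, with a mean of at least 10 CPM in the higher group. Values per library of SDH1, COR1, QCR6, QCR7, COX4, ATP1, ATP2 and ATP20 were added after they had been seen. HAP4, HAP1, ROX1 and the hypoxic and aerobic genes outside the members are given by value whether or not they were called, except HYP2, which was not analysed. HAP2, HAP3, HAP5, CAT8, MIG1 and MOT3 were named after their values had been seen. The alternatives tried were scaling by upper quartile or by DESeq2 size factors, and filters of at least 1 count in all or of 10 counts per library. The tests of DESeq2 1.42.0 (Wald) and of limma 3.58.1 (voom, or log2 FPKM plus 1 or 0.1) were also run, as were fits of the compared groups only, with replicate as a block, with the trend on gene length taken out, and with each library omitted.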

Additional observations from a re-analysis of the deposited data

Results flagged for a closer look

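For 5 genes the change against WT-red was called in only one colour of the mutant, and the test of the difference, which is the edgeR comparison of K504E-white with K504E-red, was also called. NDE1 fell only in K504E-white, with a log2 fold change of -0.70 (adjusted p 2.46e-06 by edgeR) between the mutant groups. COX13 and ATP20 were called higher only in K504E-white, with 0.38 (adjusted p 6.55e-06 by edgeR) and 0.31 (adjusted p 0.000325) between the mutant groups. For ATP20 the K504E-red libraries also all lay above those of WT-red, at 0.08 (adjusted p 0.321 by edgeR). CYC7 was called only in K504E-white, with 0.27 between the mutant groups (adjusted p 0.00720 by edgeR). That p was 0.0573 without K504E-white replicate 1 and 0.061 with a trend on gene length removed. ATP10 was called only in K504E-red, with -0.45 (adjusted p 0.00441 by edgeR) in K504E-white against K504E-red. Its call against WT-red was lost on leaving out replicate 1 of WT-red, or replicate 2 or 3 of K504E-red (0.0528 to 0.0605). In all 5 genes the direction between the mutant groups was the same under every alternative run.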

How the results depend on the processing

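The numbers of the 36 genes called against WT-red were 30 in K504E-white and 25 in K504E-red, and 16 were called between the mutant groups. Of all genes, 46.8%, 47.5% and 54.5% were called in that order. With single libraries left out, the numbers for the 36 genes were 28 to 30, 16 to 25 and 12 to 17. The 16 for K504E-red arose without its replicate 2. Under the 11 other settings the counts stayed within 1.5 times. Of 71 calls, 53 were made under every alternative, and 0 of the 71 changed sign. In the same order, 28 of 30, 14 of 25 and 11 of 16 were made throughout. Values that changed sign when a library was left out belonged to genes that were not called. Against WT-red, K504E-red ranged over these fits from -0.0308 (without its replicate 1) to 0.0904 for CYC7, from -0.061 to 0.0114 (without WT-red replicate 3) for HMG2 and from -0.0068 (without its replicate 3) to 0.0951 for PET9. K504E-white ranged from -0.2936 to 0.0327 (without its replicate 3) for ROX1 and from -0.0532 (without its replicate 1) to 0.2986 for HMG1. For ANB1 it ranged from -0.0348 (without its replicate 1) to 0.0538, with -0.0048 without its replicate 2 and -0.0013 without WT-red replicate 3. HAP3 in K504E-red against WT-red was -0.0116 with upper quartile scaling, -0.0204 and -0.0201 with filters of 1 and 10 counts, -0.0115 in a fit of that pair of groups, and -0.1235 (without K504E-red replicate 2) to 0.059 over the fits that left out a library. Between the mutant groups COX5A ranged from -0.0472 to 0.0287 (without K504E-red replicate 2). The exact p of the CYC1 to CYC7 ratio was 0.282 to 0.882 without single libraries. The cause of these shifts was not tested.

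The replicate block gave 30, 25 and 15 calls and ended those of RIP1 and ATP14 between the mutant groups. Same-numbered libraries did not deviate together (correlations of -0.11 to 0.0274 over 9 pairs), so the numbers were not taken as a pairing. Other scalings and count filters gave medians of all genes of -0.0421 to -0.0093 in K504E-white and -0.0034 to 0.0213 in K504E-red, each against WT-red. The members had at least 284 counts in each library, and the SE of their log2 fold changes was largest for NDE2 (0.136 in K504E-red against WT-red).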
